A study of Mus musculus with 15 samples.

Results

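Transcripts of the oxidative phosphorylation (OXPHOS) genes were followed in the olfactory bulbs of male mice with altered signalling of corticotropin-releasing hormone (CRH) at its receptor CRHR1. The genes were chosen by name alone: symbols beginning with Ndufa, Ndufb, Ndufc, Ndufs or Ndufv, the symbols Sdha to Sdhd, and symbols beginning with Uqcr, with Cox4 to Cox8, or with Atp5. The rule found 93 of the 46751 genes on the array, of which 92 were tested among 27438 genes in all. Cox8c, the isoform of subunit 8 known from testis, was at background level on each of the arrays and was left out. Each of the 92 tested genes was read from its brightest probe and was well above background on all 15 arrays.

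Total bulb RNA of 15 mice was hybridised to 1-colour Agilent arrays, 1 array for each mouse and 5 mice in each of 3 groups. The knockout group held CRHR1-/- mice of strain 129S4/SvJae that received the control virus AAV-flex GFP. The Cre GFP group held CRHR1-Cre mice of strain C57Bl/6 that received the same control virus. The active CRHR1 group held mice of the same Cre line that received AAV-flex-(CA)CRHR1, a Cre-dependent virus for a constitutively active receptor. All mice were 6 to 8 weeks old, received 500 nL of virus and were killed 2 weeks later. The labels name the groups as low, near wild-type and high CRH signalling. The knockout differs from the Cre GFP group in strain and in the Cre allele as well as in the receptor, and these cannot be told apart. The active receptor was directed to CRHR1-Cre cells, which the labels describe as granule cells, while RNA came from whole bulb. In such bulk RNA, fewer cells of a type and less RNA per cell cannot be told apart. The labels number the mice but name no litter or day.

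OXPHOS couples the oxidation of nutrients to the making of ATP in the inner mitochondrial membrane. Complex I takes electrons from NADH and complex II from succinate, complex III passes them to cytochrome c, and complex IV hands them to oxygen. The protons that complexes I, III and IV pump across the membrane flow back through ATP synthase and drive it. Most subunits are encoded in the nucleus, and a small core is encoded in mitochondrial DNA. Several subunits of complex IV come as pairs of isoforms, one found in most tissues and the other restricted to heart and muscle, lung, testis or other cells. Neurons, including the inhibitory granule cells that make up most cells of the bulb, draw most of their ATP from this pathway.

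By role, 7 of the 92 genes encode core subunits of complex I, 29 its accessory subunits and 7 its assembly factors. Complex II has 4 genes and complex III has 8. Complex IV has 11 common subunits, 7 tested restricted isoforms and Cox7a2l, which helps to join complexes III and IV. Ndufa4 and its paralogue Ndufa4l2 carry a complex I name but were placed with complex IV, where the NDUFA4 protein is found. ATP synthase has 5 subunits of its catalytic F1 head and 10 of its membrane part and stalk. The symbols Atp5s, Atp5sl and Atp5c1-ps also fit the name rule, but they are not subunits of the enzyme.

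Levels below are log2 processed signals relative to the 75th percentile of signal on the same array, so a change of 1 is a doubling. That percentile lay between 664 and 1171 signal units, 58.7% to 66.9% of probes were above background, and no spot was saturated. Levels of different probes are not compared, since probes differ in brightness for equal amounts of RNA. The Crhr1 probe (chr11:104036691-104036750, mm9) read 3.00 to 3.32 in the knockout, 3.48 to 3.86 in the Cre GFP group and 3.57 to 3.83 in the active CRHR1 group. It was lower on each knockout array than on any other, but well above background on all of them, and a second probe gave the same order of groups. Whether the probe lies inside the deleted part of the gene was not determined, so it does not check the knockout, nor does it separate the viral from the native transcript. Changes are differences of group means from limma, given with the standard error (SE), and p-values were adjusted over the 27438 genes by the Benjamini-Hochberg method with a threshold of 0.05.

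Promoters of these genes are shown because the genes are nuclear and moved together on the arrays, and because CRHR1 is a receptor that raises cAMP, whose transcription factor CREB binds the cAMP response element. RefSeq windows (GRCm38.p6) from 250 bases before to 50 bases after a transcription start were found for 76 of the 93 genes, 82 windows in all, and 5 motifs were searched on both strands, with no overlap between matches of different motifs. The NRF1 motif GCGCANGCG was in 23 of the 82 windows (28%), against 6.25% of all 32851 windows. The ETS and GABPA motif CCGGAAG was in 17 windows (20.7% against 8.86%), and the YY1 motif AAGATGGCG in 9 (11% against 1.4%). The cAMP response element TGACGTCA was in 4 windows (4.88% against 1.79%), those of Ndufa10, Ndufa11, Ndufb2 and Uqcrfs1. The ERRA motif TCAAGGTCA was in 2 (2.44% against 0.423%). The windows of these genes were also richer in GC than all windows (median 58% against 52.67%) and held more CpG dinucleotides (median 20 against 7), and the 2 sets of windows were not matched for either. The stretches below give the 200 bases before the start of 6 genes, 5′ to 3′ on the coding strand, with matches in capitals.
Ndufa10: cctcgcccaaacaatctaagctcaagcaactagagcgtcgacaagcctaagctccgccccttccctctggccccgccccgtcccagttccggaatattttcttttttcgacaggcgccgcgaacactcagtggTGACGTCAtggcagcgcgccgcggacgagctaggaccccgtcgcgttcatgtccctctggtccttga
Ndufb2: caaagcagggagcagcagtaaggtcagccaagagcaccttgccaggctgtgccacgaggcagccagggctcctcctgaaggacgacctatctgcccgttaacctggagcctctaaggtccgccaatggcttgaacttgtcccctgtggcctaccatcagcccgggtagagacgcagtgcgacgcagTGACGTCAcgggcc
Uqcrfs1: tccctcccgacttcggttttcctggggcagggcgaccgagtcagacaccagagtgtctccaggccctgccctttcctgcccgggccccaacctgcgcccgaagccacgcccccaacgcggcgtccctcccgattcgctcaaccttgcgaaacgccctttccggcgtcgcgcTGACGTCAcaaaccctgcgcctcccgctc
Uqcr11: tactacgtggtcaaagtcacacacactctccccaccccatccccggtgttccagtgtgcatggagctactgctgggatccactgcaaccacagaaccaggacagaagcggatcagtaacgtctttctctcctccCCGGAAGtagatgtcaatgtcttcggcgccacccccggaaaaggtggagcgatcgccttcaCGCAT
Sdha: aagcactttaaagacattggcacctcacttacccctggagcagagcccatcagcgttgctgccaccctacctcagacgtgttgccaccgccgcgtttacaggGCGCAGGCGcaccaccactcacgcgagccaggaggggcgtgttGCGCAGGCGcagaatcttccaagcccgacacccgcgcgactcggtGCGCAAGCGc
Cox6b2: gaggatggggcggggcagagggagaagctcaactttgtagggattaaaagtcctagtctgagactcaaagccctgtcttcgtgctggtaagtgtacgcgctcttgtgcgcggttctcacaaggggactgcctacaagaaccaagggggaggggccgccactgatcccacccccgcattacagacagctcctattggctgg
The Ndufa10 stretch (chr1:92473759-92473958, minus strand), the Ndufb2 stretch (chr6:39592365-39592564, plus strand) and the Uqcrfs1 stretch (chr13:30545317-30545516, minus strand) each hold the cAMP response element. The Uqcr11 stretch (chr10:80406822-80407021, minus strand) holds the ETS motif and, across the start itself, the first letters of an NRF1 match. Sdha, of the complex with the smallest changes between the active CRHR1 and knockout groups, has 3 matches to the NRF1 motif (chr13:74350241-74350440, minus strand). Cox6b2, the gene with the largest rise, has no match in its stretch (chr7:4753095-4753294, minus strand). A match describes letters and not a bound site.

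The OXPHOS genes varied together from array to array. For each gene the deviation from its mean over the 15 arrays was taken, and the median deviation over the 92 genes was then read on each array. It was 0.012, 0.012, −0.040, 0.161 and 0.433 on knockout arrays 1 to 5, and −0.108, 0.157, 0.034, −0.044 and 0.153 on Cre GFP arrays 1 to 5. On active CRHR1 arrays 1 to 5 it was −0.262, −0.171, −0.096, −0.008 and −0.223. All 5 active CRHR1 arrays were below 0, and knockout array 5 stood far above the other knockout arrays. That array gave the highest knockout value for 86 of the 92 genes, and it also had the lowest 75th percentile of signal of all arrays, 664. Within the other groups, Cre GFP array 1 was lowest for 64 genes, active CRHR1 array 1 was lowest for 57 and active CRHR1 array 4 was highest for 72.

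**Figure D1:**
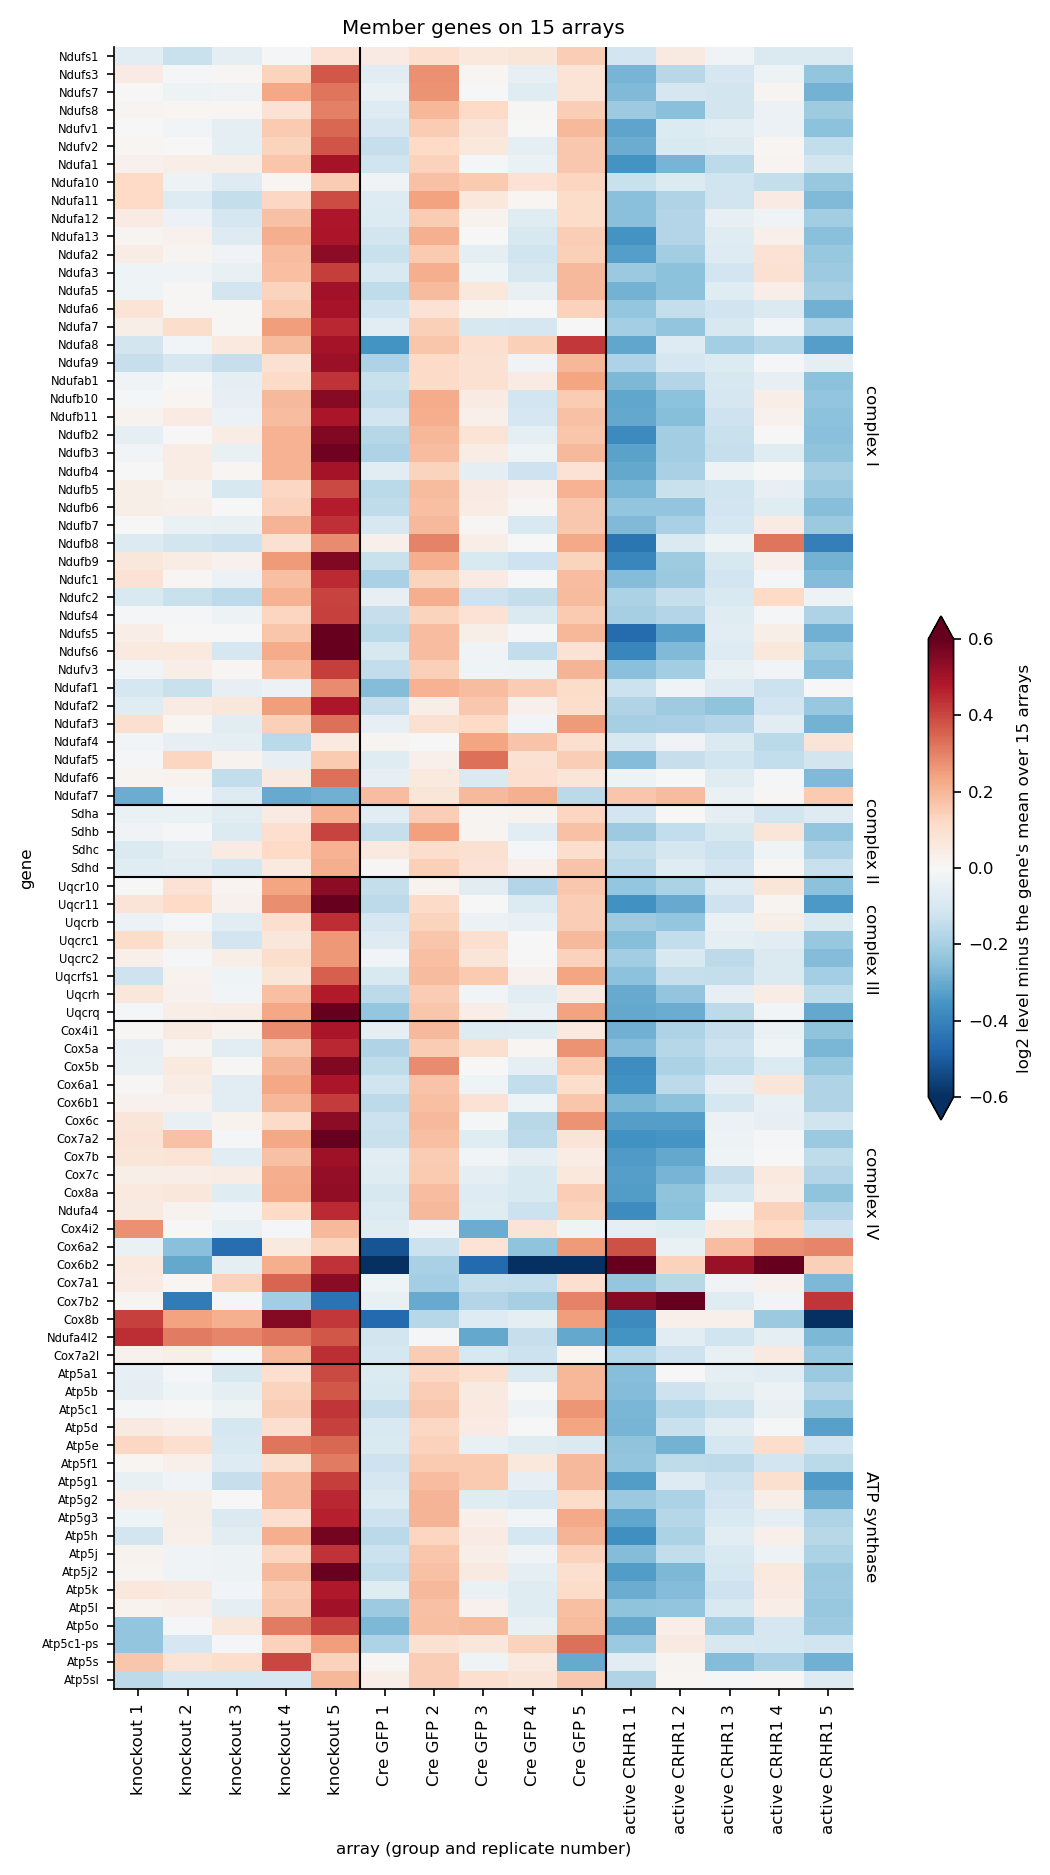
Each row is 1 tested OXPHOS gene and each column 1 of the 15 arrays, with colour for the log2 level minus the mean of that gene over all arrays. Most genes are red on knockout array 5 and blue on active CRHR1 arrays 1, 2 and 5, while Cox6b2, Cox7b2, Cox6a2 and Ndufaf7 show other patterns.

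Other genes read at similar brightness moved with them. A level range was set by the quartiles of the 92 mean levels (4.24 to 6.39), and it held 1633 other genes. The median deviation of those genes was 0.010, 0.006, −0.039, 0.130 and 0.300 on the knockout arrays, and −0.073, 0.118, 0.023, −0.005 and 0.108 on the Cre GFP arrays. On the active CRHR1 arrays it was −0.173, −0.107, −0.088, −0.013 and −0.164. It lay on the same side of 0 as the OXPHOS median on 15 of 15 arrays, and the largest gap between them was 0.133, on knockout array 5. The OXPHOS median minus the level-range median was 0.034 ± 0.057 in the knockout, 0.004 ± 0.039 in the Cre GFP group and −0.043 ± 0.040 in the active CRHR1 group (SD, n = 5 each). The lowest to highest values were −0.001 to 0.133, −0.039 to 0.045 and −0.089 to 0.005, so the ranges of all 3 groups overlapped.

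**Figure D2:**
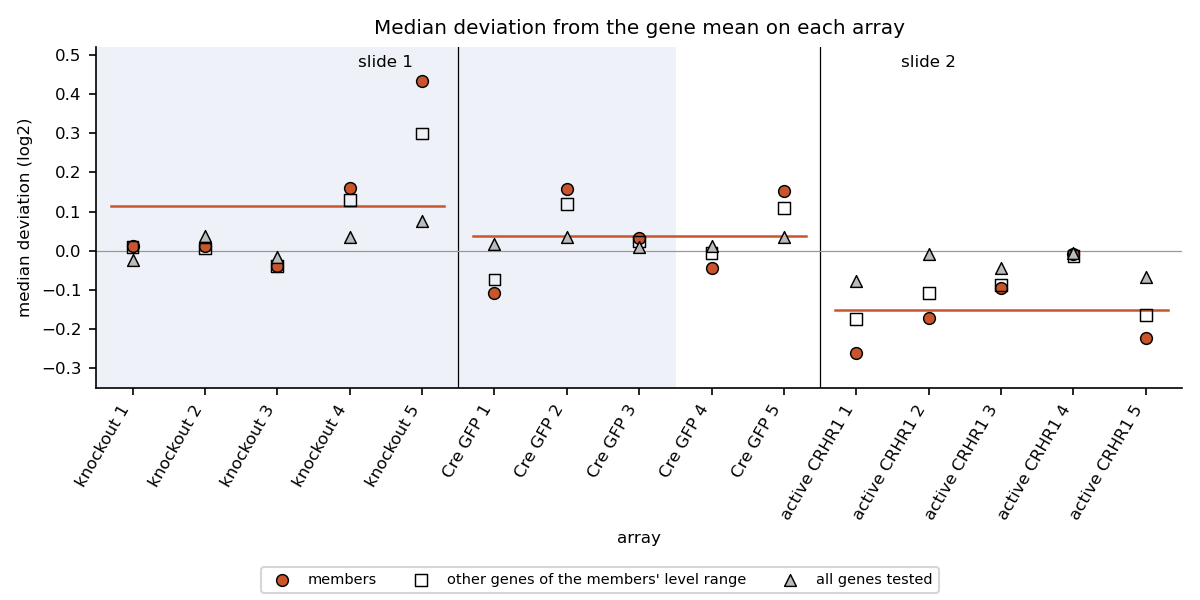
The median deviation (log2) on each array is plotted for the 92 OXPHOS genes, the 1633 other genes of their level range and all 27438 genes tested, with horizontal lines for the group means of the OXPHOS medians and shading for slide 1. All 5 active CRHR1 arrays are below 0 in each gene set, and the OXPHOS and level-range medians lie on the same side of 0 on every array.

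Active CRHR1 and Cre GFP mice share the Cre line and differ in the virus, so their comparison addresses raised receptor activity in adult bulbs. Most OXPHOS transcripts were slightly lower with the active receptor: the mean was lower for 87 of 92 genes and the median change was −0.19, where the array medians had a pooled SD of 0.143 within groups. Past the threshold were 4 genes: Cox6b2 rose, and Ndufa10, Uqcrc2 and Ndufaf5 fell. All active CRHR1 arrays lay on slide 2 with 2 of the Cre GFP arrays, and with slide as a fixed block in limma Cox6b2 still passed while the 3 lower genes did not. The 4 genes called without that block were 4.35% of the OXPHOS genes, against 8.52% of all genes tested. The share called was thus not above the background (3.89% of all genes were called higher and 4.64% lower). A lower mean was also found for 61.9% of all genes, and a higher one for 38.1% (median change −0.065), and for 86.7% of the 1633 genes of the level range (median −0.14, with 12 called higher and 130 lower). The groups did not overlap for 1 gene that was higher and 7 that were lower, where 3.27% and 7.24% of all genes had such separate groups.

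The direction was shared by all 5 complexes, whose medians were negative under each of the scalings tried. The median change was −0.20 in complex I, −0.18 in complex II, −0.23 in complex III, −0.16 in complex IV and −0.19 in ATP synthase. The gene with the lowest change was Ndufa8 in complex I (−0.31), Sdhc in complex II (−0.19), Uqcrfs1 in complex III (−0.27), Cox5b in complex IV (−0.25) and Atp5f1 in ATP synthase (−0.25), none of them past the threshold. Of the 75 genes left after the restricted isoforms, related names, and assembly factors were set aside, 75 had a lower mean with the active receptor, with changes from −0.31 (Ndufa8) to −0.07 (Cox7a2l), and 2 were called. The size depended on the scaling: the median over the 92 genes was −0.285 with arrays centred on their median. It was −0.073 with the planned quantile normalisation and −0.079 with the planned normexp background correction, where all genes had medians of −0.063 and −0.045. Settings chosen after seeing the data gave −0.072 with centring on the level range (all genes 0.050) and −0.039 with cyclic loess (all genes −0.006). Cyclic loess evens out intensity-dependent differences between arrays.

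Ndufa10, an accessory subunit of complex I whose promoter holds the cAMP response element shown above, was read at chr1:94361039-94363996 (mm9). Its level was 4.20, 4.40, 4.38, 4.31 and 4.35 on Cre GFP arrays 1 to 5 and 4.09, 4.14, 4.10, 4.08 and 3.99 on the active CRHR1 arrays. The highest active CRHR1 array was below the lowest Cre GFP array. The change was −0.25 ± 0.06 (SE, adjusted p = 0.0231, limma with Benjamini-Hochberg adjustment, n = 5 and 5). The call of Ndufa10 was lost in 5 of 15 omissions of 1 array and in 10 of 18 other settings, over which the change ran from −0.34 to −0.12 (adjusted p = 0.112 with slide as a fixed block).

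Uqcrc2, a core protein of complex III (chr7:127802599-127802658), read 5.16, 5.35, 5.25, 5.17 and 5.31 in the Cre GFP group and 4.97, 5.08, 5.02, 5.09 and 4.91 with the active receptor. These groups did not overlap either, and Uqcrc2 fell by 0.24 ± 0.07 (adjusted p = 0.0401). Ndufaf5, an assembly factor of complex I (chr2:139996598-139996657), read −0.65, −0.55, −0.25, −0.49 and −0.43 in the Cre GFP group and −0.84, −0.72, −0.70, −0.73 and −0.69 with the active receptor. Its groups were separate as well, with a change of −0.26 ± 0.07 (adjusted p = 0.0421). The calls of Uqcrc2 and Ndufaf5 were lost in 9 and 13 of the 15 omissions of 1 array, with adjusted p up to 0.102 and 0.112, and each in 10 of 18 other settings. With slide as a fixed block their adjusted p-values were 0.160 and 0.140. Taking the mean of all kept probes moved Ndufaf5 to −0.04, since 1 of its 3 probes was higher with the active receptor (0.48) while both others were lower. The number of OXPHOS genes called moved from 4 to 13 without knockout array 5 and to 10 without Cre GFP array 1. It moved to 1 without Cre GFP array 2, 3 or 5 or active CRHR1 array 1 or 5, and to 2 without knockout array 4, Cre GFP array 4 or active CRHR1 array 3 or 4.

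**Figure D3:**
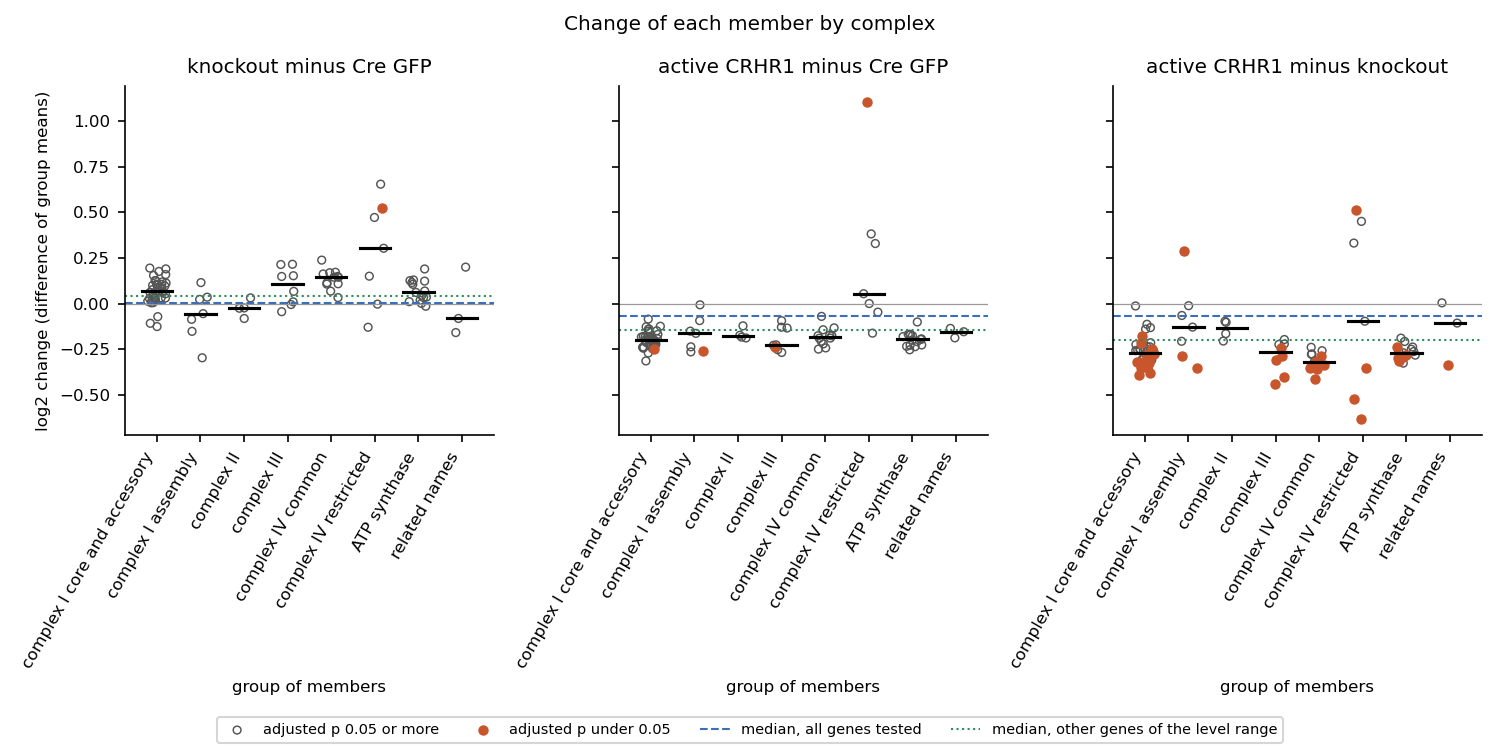
Each point is the log2 change of 1 OXPHOS gene in 1 comparison, grouped by complex and role, with bars for group medians filled points for adjusted p under 0.05, and dashed and dotted lines for the medians of all genes and of the level range. With the active receptor nearly all points lie below 0 and Cox6b2 stands apart at 1.11 against the Cre GFP group, while under other scalings the knockout median of ATP synthase turns negative and the complex II median between active CRHR1 and knockout turns positive.

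Cox6b2 went the other way from the common subunits. It encodes an isoform of subunit 6B of complex IV known chiefly from testis (probe chr7:4703488-4703547, mm9). Its level was 0.32, 0.82, 0.55, 0.17 and 0.28 on Cre GFP arrays 1 to 5, and 1.88, 1.16, 1.54, 1.95 and 1.16 on active CRHR1 arrays 1 to 5. On knockout arrays 1 to 5 it was 1.07, 0.71, 0.96, 1.23 and 1.45. All active CRHR1 arrays were above all Cre GFP arrays, and the knockout arrays lay between and overlapped both. Cox6b2 rose by 1.11 ± 0.19 with the active receptor, or 2.15-fold (adjusted p = 0.00238, limma). The call held when each of the 15 arrays was left out in turn (adjusted p up to 0.00886) and in all but the comparison within slide 2, where the Cre GFP group has 2 arrays. Across settings the change was 1.00 to 1.31. Between knockout and Cre GFP it was 0.65 ± 0.19 (adjusted p = 0.0699), and between active CRHR1 and knockout 0.45 (adjusted p = 0.0840). Its common partner Cox6b1 changed by −0.29 between active CRHR1 and knockout, which passed the threshold.

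The knockout and Cre GFP groups differ in CRHR1, strain and the Cre allele. In this comparison the OXPHOS genes differed little: 1 of 92 (1.09%) passed, Ndufa4l2, which was higher in the knockout, against 3.38% of all genes (1.95% higher and 1.43% lower). Ndufa4l2 was also the one gene whose groups did not overlap, where 3.11% of all genes were separate and higher and 2.43% separate and lower. The mean was higher in the knockout for 75 of the 92 genes, against 50.7% of all genes (49.3% were lower) and 60.8% of the level range, with a median change of 0.069. That lean rested on knockout array 5, since without it 42 genes were higher and 50 lower, with a median of −0.005. The median was also smaller with quantile normalisation (0.016), median centring (0.014) and normexp background correction (0.011). By complex it was 0.062 in complex I, −0.024 in complex II, 0.11 in complex III, 0.15 in complex IV and 0.053 in ATP synthase, and the last was negative with quantile normalisation (−0.019), normexp (−0.021) and median centring (−0.002). Without knockout array 5 the medians of complex I (−0.008) and ATP synthase (−0.025) turned negative, and those of complexes II, III and IV were −0.068, 0.011 and 0.058. At an unadjusted p under 0.05, 6 OXPHOS genes were higher and 4 lower, where 10.8% and 9.03% of all genes were.

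Ndufa4l2 is the paralogue of the complex IV subunit Ndufa4 and is known as a target of hypoxia-inducible factor and as a transcript of mural cells of vessels. Its probe (chr10:126954149-126954208, mm9) read 0.62, 0.49, 0.47, 0.50 and 0.55 on knockout arrays 1 to 5, 0.07, 0.17, −0.13, 0.04 and −0.13 in the Cre GFP group and −0.18, 0.12, 0.06, 0.12 and −0.09 in the active CRHR1 group. All knockout arrays were above all others, while the other groups overlapped. It was higher in the knockout by 0.52 ± 0.08, or 1.44-fold (adjusted p = 0.00301, limma), and lower by the same amount in active CRHR1 than in knockout bulbs (−0.52 ± 0.08, adjusted p = 0.000766). The means with the active receptor and in the Cre GFP group were 0.01 and 0.00 (adjusted p = 0.997). The knockout call held in 15 of 15 omissions of 1 array and was lost only within slide 1, where 3 Cre GFP arrays remain. The mean of 7 of 8 markers of endothelial and mural cells was also higher in the knockout, and Pecam1 was nearly level (−0.005). Of the 8, 3 passed, among them the mural cell genes Rgs5 (1.03) and Kcnj8 (0.96). The sum of the 8 was 32.7 to 39.1 against 28.2 to 33.9 in the Cre GFP group. With the active receptor it was 29.1 to 36.5, 1 marker was called higher than in the Cre GFP group, and Kcnj8 changed most (0.67). The part of these markers in the Ndufa4l2 difference was not tested.

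The comparison of the active CRHR1 and knockout groups spans the labelled range of CRH signalling and carries the strain difference too. The 2 groups also lie on different slides, so slide and group are tied but for the shared Cre GFP arrays. OXPHOS transcripts were lower in active CRHR1 bulbs: 39 fell and 2 rose, and the median change over the 92 genes was −0.27. The mean was lower for 87 of the 92 genes and higher for 5, against 59.3% and 40.7% of all genes. The genes called made up 44.6% of the OXPHOS genes, against 25.7% of all genes, and those called lower made up 42.4%, against 16.3% of all genes (9.44% were called higher) and 32.9% of the 1633 other genes of the level range (median −0.20). The arrays of the groups did not overlap for 25 of the genes that were lower and for none that were higher, where 11.8% and 6.85% of all genes had separate groups.

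This count moved with the setting. With slide as a fixed term in limma, 0 OXPHOS genes and 677 of all genes passed, although the OXPHOS median change stayed at −0.29. In that fit 16 OXPHOS genes had an unadjusted p under 0.05, but the share of all genes by that rule was not taken. With quantile normalisation 19 passed, 17 of them lower, and the median change was −0.087. Centring on the other genes of the level range gave 16 and −0.107. Of all 27438 genes, 7008 and 5675 passed in these settings, in either direction. The share of OXPHOS genes called was thus below that of all genes in both. Leaving out 1 array gave from 8 genes (without active CRHR1 array 1 or 5) to 60 (without knockout array 3). It gave 9 without knockout array 4, 11 without active CRHR1 array 2, 12 without knockout array 5 and 26 without active CRHR1 array 3. This comparison and the one with the Cre GFP group share the active CRHR1 arrays, and all 3 comparisons share arrays pairwise, so they are not independent of each other.

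In complex I, 18 of 43 genes fell (41.9%) and 1 rose between knockout and active CRHR1, with a median of −0.26. This count and those by complex below stand against 16.3% of all genes and 32.9% of the level range called lower. Among the core subunits, which carry the flavin and the iron-sulfur clusters, 3 of 7 fell. Ndufs8, which holds a pair of those clusters, read 4.04, 4.03, 4.03, 4.11 and 4.33 on the knockout arrays and 3.81, 3.77, 3.91, 3.99 and 3.81 with the active receptor, with no overlap (−0.25 ± 0.08, adjusted p = 0.0300). Ndufs3 (−0.27) also passed, while Ndufs1, the largest core subunit, was nearly level (−0.01, adjusted p = 0.879).

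Among the accessory subunits 13 of 29 fell. The lowest was Ndufs5 with 6.31, 6.27, 6.27, 6.44 and 6.90 in the knockout and 5.80, 5.94, 6.21, 6.30 and 5.98 with the active receptor (−0.39 ± 0.13, adjusted p = 0.0424). The groups of Ndufs5 overlapped slightly, since active CRHR1 array 4 exceeded the lowest knockout arrays. The other accessory subunits called were Ndufb9 (−0.38), Ndufb2 (−0.35), Ndufb3 (−0.35), Ndufa1 (−0.33), Ndufa6 (−0.33), Ndufb6 (−0.32), Ndufb11 (−0.32), Ndufa7 (−0.32), Ndufc1 (−0.31), Ndufb4 (−0.30), Ndufv3 (−0.28) and Ndufa10 (−0.18). The other, dimmer probes of Ndufv3 changed by −0.09 and 0.07, so its fall rests on its brightest probe. The smallest accessory change was that of Ndufc2 (−0.11), which did not pass.

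The assembly factors of complex I, which help to build the complex but do not stay in it, did not move as one. Ndufaf2 read 2.01, 2.13, 2.15, 2.33 and 2.57 in the knockout and 1.90, 1.87, 1.84, 1.97 and 1.85 with the active receptor, without overlap (−0.35 ± 0.09, adjusted p = 0.0174), and Ndufaf3 also fell (−0.29, adjusted p = 0.0208). Ndufaf7, a mitochondrial methyltransferase (probe chr17:79346307-79346366), went the other way. It read 2.61, 2.90, 2.83, 2.61 and 2.62 in the knockout, 3.10, 2.99, 3.10, 3.13 and 2.75 in the Cre GFP group and 3.08, 3.10, 2.87, 2.92 and 3.07 with the active receptor. Knockout arrays 1, 4 and 5 were the lowest of all, and the groups overlapped. Ndufaf7 was 0.29 ± 0.09 higher in active CRHR1 than in knockout bulbs (adjusted p = 0.0306), −0.30 in the knockout against the Cre GFP group (adjusted p = 0.0844), and −0.01 with the active receptor against the Cre GFP group (adjusted p = 0.972).

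None of the 4 subunits of complex II, which is also the succinate dehydrogenase of the citric acid cycle, passed in any comparison with limma. At an unadjusted p under 0.05 the counts were 0 between knockout and Cre GFP, 2 between active CRHR1 and Cre GFP and 1 between active CRHR1 and knockout, all lower, where 18.4% and 25.8% of all genes were lower by that rule in the last 2 comparisons. The changes between active CRHR1 and knockout ran from −0.20 (Sdhb, adjusted p = 0.146) to −0.10 (Sdha, the flavoprotein, adjusted p = 0.268). Their median of −0.13 turned positive with quantile normalisation (0.023), normexp (0.019), cyclic loess (0.039) and centring on the level range (0.025).

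In complex III 5 of 8 genes (62.5%) fell between knockout and active CRHR1. Uqcr11, a small subunit whose promoter stretch is shown above (probe chr10:79865745-79865804, mm9), had the lowest change. It read 6.44, 6.48, 6.39, 6.64 and 6.96 in the knockout, 6.21, 6.48, 6.36, 6.28 and 6.51 in the Cre GFP group and 6.00, 6.06, 6.24, 6.38 and 6.02 with the active receptor. All active CRHR1 arrays were below all knockout arrays, by a narrow margin for array 4, and the Cre GFP arrays overlapped both. The change was −0.44 ± 0.11 (adjusted p = 0.0144), the lowest of the ordinary subunits of all complexes. Uqcrq (−0.40), Uqcr10 (−0.31), Uqcrh (−0.29) and Uqcrc2 (−0.25 ± 0.07, adjusted p = 0.0176) also fell, and Uqcrb changed least (−0.20).

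Of the 11 common subunits of complex IV, 7 (63.6%) fell between knockout and active CRHR1, with a median of −0.32. Cox4i1, the common form of the regulatory subunit 4, read 7.55, 7.59, 7.56, 7.82 and 8.03 in the knockout and 7.25, 7.35, 7.40, 7.50 and 7.30 with the active receptor, without overlap (−0.35 ± 0.10, adjusted p = 0.0197). Cox7a2, the common form of subunit 7A, read 5.47, 5.56, 5.38, 5.62 and 6.00 against 5.02, 5.04, 5.36, 5.38 and 5.17 (−0.41 ± 0.12, adjusted p = 0.0225). The groups of Cox7a2 met at the rounded level of 5.38. Cox5b (−0.36), Cox7c (−0.34), Cox8a (−0.34), Cox7b (−0.32) and Cox6b1 (−0.29) completed the set, and Ndufa4 changed least (−0.26, not past the threshold). Cox7a2l changed by −0.24 and did not pass.

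Of the 18 genes grouped with ATP synthase, 6 fell (33.3%). That share is near the 32.9% of the other genes of the level range, where 16.3% of all genes were called lower. They were 2 of 5 in the F1 head, Atp5c1 (−0.28) and Atp5e (−0.29), and 3 of 10 in the membrane part and stalk, Atp5k (−0.32), Atp5g2 (−0.30) and Atp5f1 (−0.24). The last was Atp5s (−0.34), a related name and not a subunit. Atp5b, the catalytic beta subunit, changed by −0.21 (adjusted p = 0.0952). Some probes of this family carry an annotation that sits apart from their gene: the probe read for Atp5l is placed on chromosome X and that for Atp5j2 on chromosome 9, so near-identical copies may share their signal. A second probe of Atp5g1 rose where the first was lower (0.31 against −0.24 between active CRHR1 and knockout), so the 2 probes of this gene disagree in direction. For Atp5c1, which was called, a second and dimmer probe was nearly level in that comparison (−0.03).

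The restricted isoforms of complex IV stood out by their spread. Between knockout and Cre GFP their changes ran from −0.13 (Cox7b2) to 0.65 (Cox6b2), between active CRHR1 and Cre GFP from −0.16 (Cox8b) to 1.11 (Cox6b2), and between active CRHR1 and knockout from −0.63 (Cox8b) to 0.51 (Cox7b2). In the last comparison 3 of 7 fell (Ndufa4l2, Cox8b and Cox7a1) and Cox7b2 rose. Their common partners lay between −0.26 and −0.41 in that comparison.

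Cox8b, the heart and muscle form of subunit 8 (chr7:148084852-148084911), read −0.52, −0.70, −0.72, −0.38 and −0.51 in the knockout, −1.40, −1.11, −1.01, −0.99 and −0.68 in the Cre GFP group and −1.32, −0.91, −0.90, −1.16 and −1.72 with the active receptor. The knockout arrays were all above the active CRHR1 arrays and overlapped the Cre GFP arrays only at Cre GFP array 5. The change between active CRHR1 and knockout was −0.63 ± 0.16 (adjusted p = 0.0128), and that between knockout and Cre GFP was 0.47 (adjusted p = 0.115). Cox7a1, the heart and muscle form of subunit 7A (chr7:30970337-30970948), read 2.03, 1.99, 2.12, 2.32 and 2.52 in the knockout, 1.95, 1.77, 1.83, 1.83 and 2.07 in the Cre GFP group and 1.74, 1.81, 1.96, 2.00 and 1.71 with the active receptor. It was lower in active CRHR1 than in knockout bulbs by −0.35 ± 0.10 (adjusted p = 0.0276), with overlap at active CRHR1 array 4. Of 9 muscle markers, Ckm, Mb, Myh1, Myh2 and Myh4 were not well above background. The other 4 summed to 1.53 to 2.11 in the knockout, 1.63 to 2.04 in the Cre GFP group and 1.37 to 1.71 with the active receptor. Of these 4, Actn3 (−0.46) and Tnnt3 (−0.87) fell between knockout and active CRHR1, while Tnni2 was nearly level (0.03). Tnni2 was higher with the active receptor than in the Cre GFP group (0.46, past the threshold).

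Cox7b2, an isoform of subunit 7B known from testis (chr5:71834459-71894699), was far below the 75th percentile on every array. It read −3.80, −4.24, −3.83, −4.02 and −4.26 in the knockout, −3.86, −4.12, −3.99, −4.01 and −3.51 in the Cre GFP group and −3.27, −3.22, −3.89, −3.83 and −3.38 with the active receptor. Active CRHR1 arrays 1, 2 and 5 were the highest of all, and the groups overlapped at arrays 3 and 4 (0.51 ± 0.16 against the knockout, adjusted p = 0.0310). Cox6a2, the heart and muscle form of subunit 6A, read 1.12, 0.91, 0.70, 1.22 and 1.29 in the knockout, 0.64, 1.03, 1.24, 0.92 and 1.41 in the Cre GFP group and 1.54, 1.12, 1.34, 1.44 and 1.45 with the active receptor. Its changes of 0.33 against each of the other groups did not pass (adjusted p = 0.164 against Cre GFP and 0.102 against the knockout). Cox4i2, the lung form of subunit 4 that is also found in mural cells, ranged from −1.94 to −1.37 over all arrays and did not pass in any comparison (adjusted p = 0.344, 0.710 and 0.404).

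**Figure D4:**
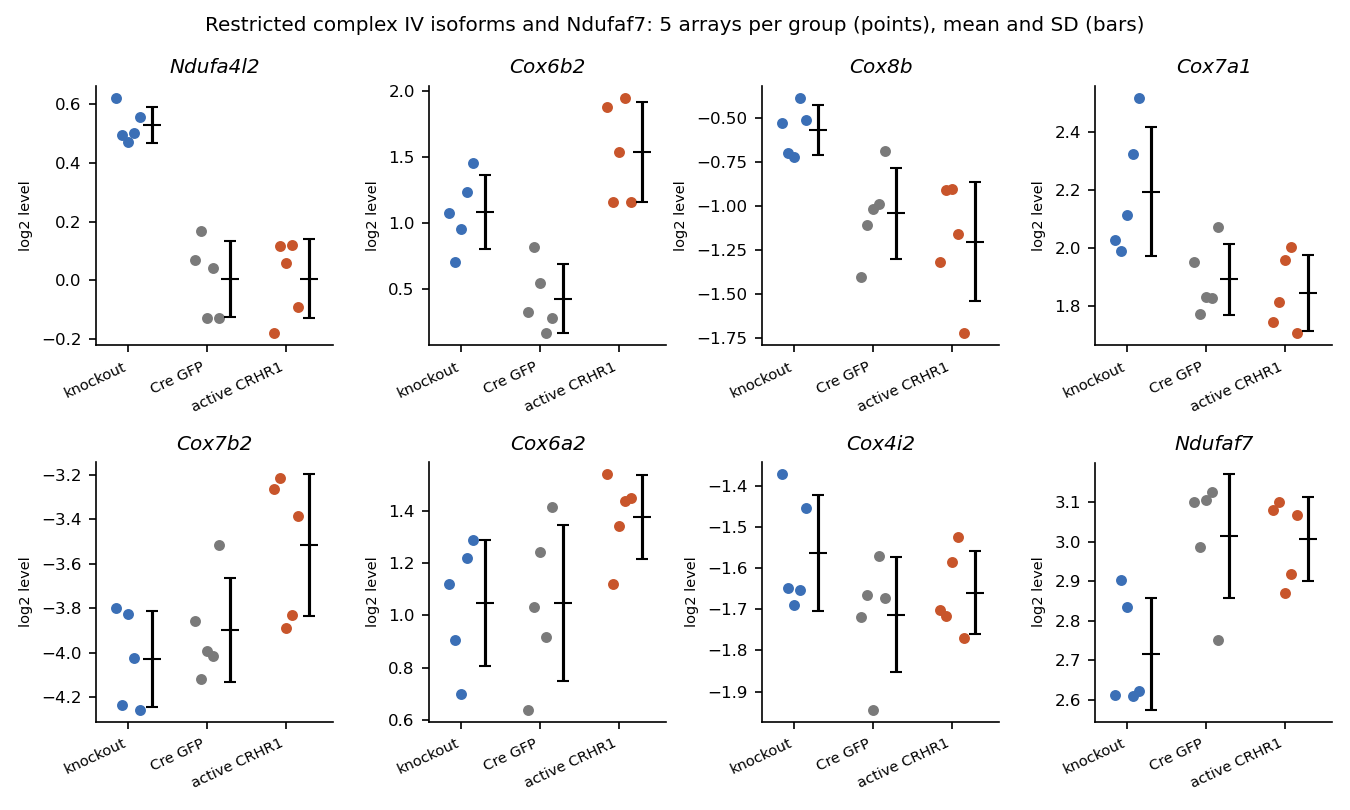
The log2 level relative to the 75th percentile of the array is plotted for the 7 tested restricted isoforms of complex IV and for Ndufaf7, with 5 arrays per group as points and the mean and SD as bars, each panel on its own axis. All knockout arrays of Ndufa4l2 lie above the other groups, and all active CRHR1 arrays of Cox6b2 lie above the Cre GFP arrays.

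Other genes of mitochondrial energy metabolism were read from fixed lists, and their counts stand against the shares of all genes given above (4.64% lower between active CRHR1 and Cre GFP, 16.3% lower between active CRHR1 and knockout). The 13 subunits encoded in mitochondrial DNA had median changes of −0.003 between knockout and Cre GFP, −0.030 between active CRHR1 and Cre GFP and −0.013 between active CRHR1 and knockout, and only ND2 passed, in the last comparison (−0.23). For 6 of these 13 genes the probe is annotated to chromosome 1, where nuclear copies could give its signal. The mitochondrial ribosome, which translates those subunits, had medians of −0.15 and −0.18 in the comparisons of active CRHR1 with Cre GFP and with the knockout, with 4 (5.26%) and 22 (28.9%) of 76 genes called lower and none higher. The first share is near that of all genes. Between knockout and Cre GFP, Mrpl33 was higher (0.53) and Mrps12 lower (−0.46).

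Of 20 genes of the citric acid cycle and pyruvate dehydrogenase, 4 fell with the active receptor against the Cre GFP group: Idh3b (−0.25), Pdha1 (−0.23), Suclg1 (−0.24) and Idh3a (−0.26). Against the knockout 6 fell, and between knockout and Cre GFP Dlat was lower in the knockout (−0.38). Of 33 assembly factors outside the name rule, Tmem70 (−0.21), which serves ATP synthase, Uqcc1 (−0.19) and Bcs1l (−0.20), which serve complex III, fell against Cre GFP. Against the knockout 11 fell and 2 rose, Lyrm7 by 1.44 and Foxred1 by 0.23. Both were lower in the knockout than in the Cre GFP group (Lyrm7 −1.19, Foxred1 −0.28). Between active CRHR1 and Cre GFP, Lyrm7 changed by 0.25. Of 15 tested electron carriers and genes of coenzyme Q synthesis, Coq4 was higher in the knockout than in the Cre GFP group (0.32) and lower in active CRHR1 than in knockout bulbs (−0.39), where Pdss1 rose (0.41) and Etfb (−0.36) and Coq8b (−0.27) fell.

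Glycolysis had a median of −0.20 over 17 genes between active CRHR1 and Cre GFP, with Pgam1 lower (−0.26) and Hk2, the inducible hexokinase, higher (1.06, adjusted p = 0.000616). Against the knockout, Hk2 was higher too (0.95), 1 other gene rose and 4 fell. Pfkp was lower in the knockout than in the Cre GFP group (−0.34). Of 13 carriers and membrane proteins, the mitochondrial creatine kinase Ckmt1 fell against both the Cre GFP group (−0.43) and the knockout (−0.58). Of 9 mitochondrial antioxidant enzymes, Gpx4 (−0.37) and Txn2 (−0.21) fell against the knockout.

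Of 17 regulators of mitochondrial biogenesis, Pprc1 alone passed, 0.33 higher in active CRHR1 than in knockout bulbs. Ppargc1a, the coactivator that drives many OXPHOS genes, changed by −0.18 between knockout and Cre GFP and by −0.22 between active CRHR1 and Cre GFP. Nrf1, whose motif was counted above, changed by −0.07 and −0.10, Gabpa by −0.16 and 0.07, Esrra by −0.03 and −0.22, and Tfam, which packages mitochondrial DNA, by 0.00 and −0.17. None of these 5 genes passed in any comparison.

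Cell markers moved in the same comparisons, and their part in the OXPHOS differences was not tested. Markers of microglia and macrophages were called higher with the active receptor than in the Cre GFP group for 9 of 12 genes. The mean was lower for 2 of the 12, with P2ry12 lowest (−0.27). Against the knockout 6 of the 12 were called higher and 1 lower, again with P2ry12 lowest (−0.54). Summed linear levels of the 12 were 132 to 194.2 with the active receptor against 85.9 to 113.5, and 100.6 to 125.1 in the knockout. Markers of neurons were lower for 5 of 10 genes, among them Nefl (−0.34) and Syn1 (−0.29), with sums of 411.9 to 488.2 against 511.8 to 574.2, and 471.8 to 552.9 in the knockout. Such sums weigh bright probes most. Snap25 stood apart, with −0.98 between knockout and Cre GFP (median of the 10 genes −0.076). Between active CRHR1 and knockout it was 0.65 higher (median −0.18). The bulb granule cell markers Meis2 (−0.30) and Pcp4 (−0.47) fell, and the sum of 10 such markers was 427 to 504.5 against 521.3 to 596.5. These ranges did not overlap between active CRHR1 and Cre GFP, as was also the case for oligodendrocyte markers (121.3 to 153.1 against 158.8 to 191.6).

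Between active CRHR1 and knockout, 6 of 7 oligodendrocyte markers and 7 of 7 markers of olfactory ensheathing glia fell. The ensheathing glia summed to 263.5 to 325.4 in the knockout, 215 to 268.6 in the Cre GFP group and 191.6 to 218.2 with the active receptor. Astrocyte sums overlapped (113.8 to 149.7, 102.1 to 123.3 and 99.3 to 120.4), and the 7 markers did not move as one. Against the Cre GFP group Gfap was higher with the active receptor (0.86), while 4 of the 7 had a lower mean (median −0.10) and no other passed. Slc1a3 (0.37) and Aqp4 (0.34) were higher in the knockout than in the Cre GFP group. Between knockout and active CRHR1, Gfap rose (1.67) and Slc1a3 (−0.55) and S100b (−0.64) fell. T-cell markers were higher with the active receptor than in the Cre GFP group for 4 of 6 tested genes, while 1 of 7 mitral and tufted cell markers, Tbr1, fell (−0.49). Of 5 blood markers, Slc4a1 fell between knockout and active CRHR1 (−0.98). No blood marker passed in the other comparisons.

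**Figure D5:**
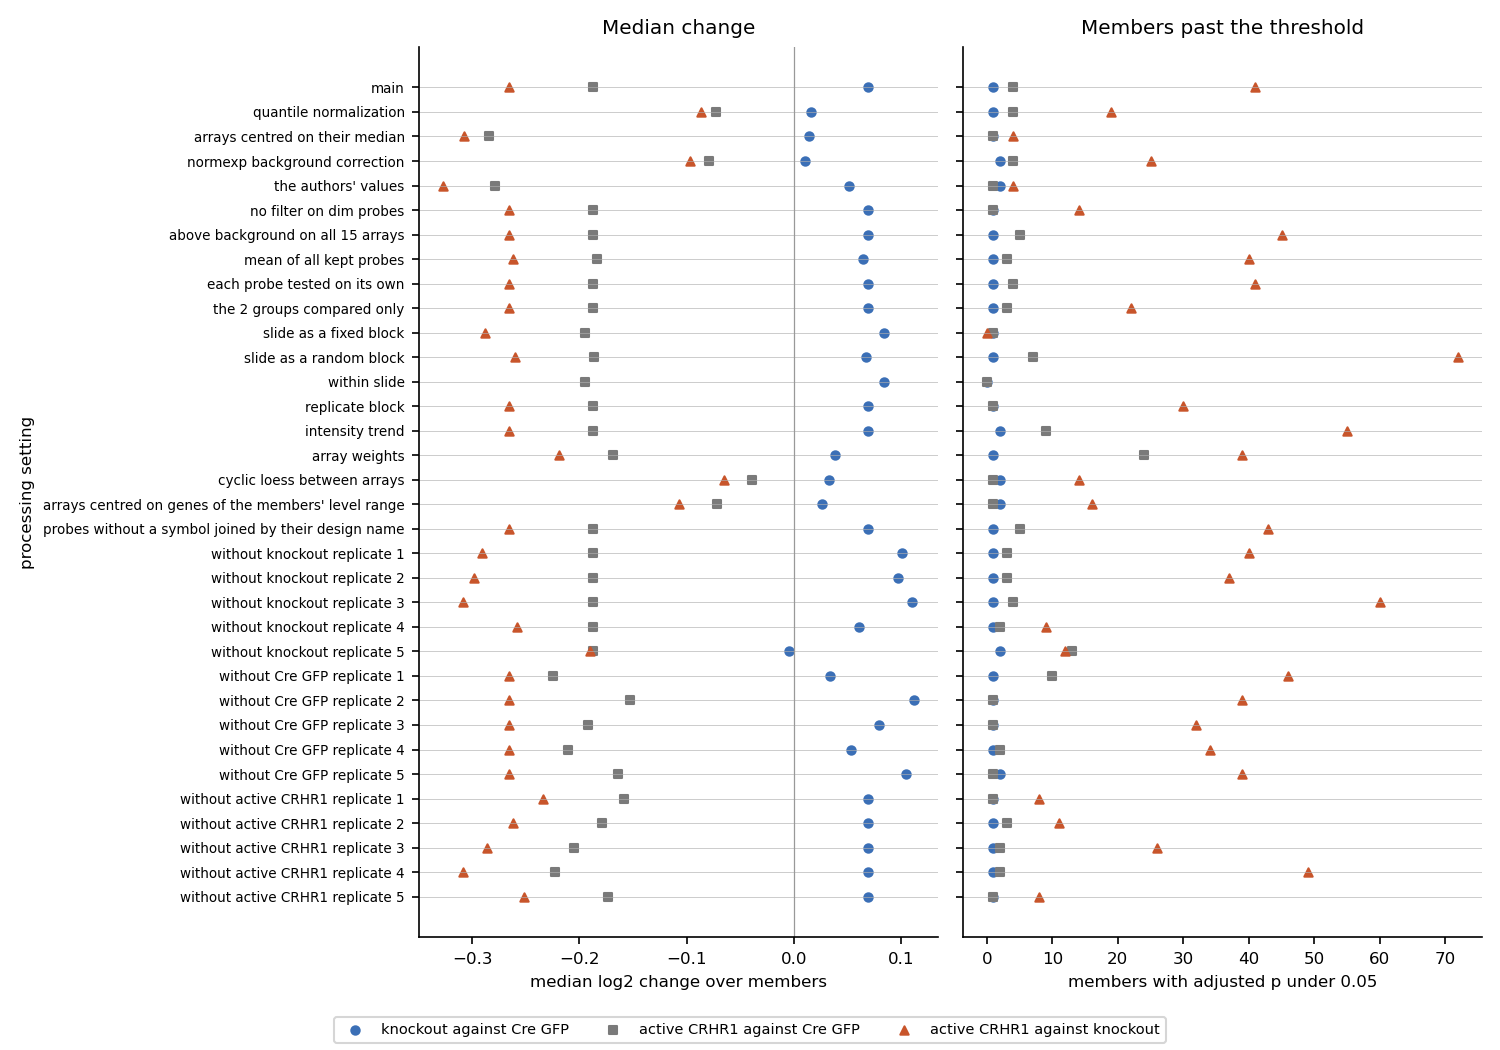
The median log2 change over the OXPHOS genes (left) and the number past the threshold (right) are plotted for each comparison under the setting used throughout (main), under each alternative and with each array left out, and overlapping points hide one another. The medians of both active CRHR1 comparisons are below 0 in every setting, and the knockout median crosses 0 without knockout array 5. The number past the threshold between active CRHR1 and knockout runs from 0 (slide as a fixed block) to 72 (slide as a random block).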

How the data were processed

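The data were 1-colour Agilent arrays of total bulb RNA, 100 ng labelled with Cy3, with 62976 spots each. Per the file headers, Agilent Feature Extraction 10.7.3.1 made the deposited processed intensity of each spot, with background subtracted and no scaling between arrays, and the deposited flags for spots above background, saturated or uneven. The authors' deposited series values were the same intensity divided by the median of the array and served as an alternative.

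Log2 processed signals minus the 75th percentile of each array were used. Control and outlier spots were left out, spots of a probe were averaged, and 33965 of 55681 probes, those above background on at least 4 of 5 arrays of a group, were kept. RefSeq names were matched for 27509 probes, and each gene was read from its brightest probe. limma 3.58.1 (R 4.3.3) fitted the 3 groups together, with Benjamini-Hochberg adjustment over 27438 genes. The script was tested on simulated data. Promoters and figures used Python 3.11.15, pandas 2.3.3 and matplotlib 3.10.9. Depth has no direct counterpart on arrays, and the number of arrays limits the precision.

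The OXPHOS genes and the lists of other genes were chosen with earlier results of these data known. The text names the genes past the threshold, apart from some not reported here, the extremes of each complex and the isoform pairs. A planned naming of the brightest and dimmest genes was dropped, since probe levels are not comparable. Alternatives covered scaling, background correction, filters, probe choice, slide, replicate number, weights and the omission of single arrays. Cyclic loess, centring on the level range and joining unnamed probes by their design name were added after seeing the data.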

Additional observations from a re-analysis of the deposited data

Results flagged for a closer look

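Of 54 groups of 5 arrays examined, 1 held an array far from the others. Ndufaf5, an assembly factor of complex I, read −0.841 on active CRHR1 array 1, while the nearest of the other 4 active CRHR1 arrays read −0.73. The gap was 0.74 of the range of the group, against Dixon's critical value of 0.71 for 5 samples. Chance sets apart about 1 group in 20, so 1 of 54 is not more than chance gives.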

How the results depend on the processing

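Between knockout and Cre GFP, 1 OXPHOS gene passed. The count was 2 with normexp, the authors' values, an intensity trend, cyclic loess or centring on the level range, and 0 within slide 1 (limma, 5 at an unadjusted p under 0.05). Single omissions gave 1 to 2 genes, 2 without knockout array 5 or Cre GFP array 5. The median change kept its sign in all 18 settings (0.011 to 0.084) and ran from −0.005 to 0.112 over omissions.

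Between active CRHR1 and Cre GFP, 4 genes passed. The count was 1 with median centring, the authors' values, no filter on dim probes, slide as a fixed block, cyclic loess or centring on the level range. It was 7 with slide as a random block, 9 with an intensity trend, 24 with array weights, and 0 within slide 2 (limma, 28 at an unadjusted p under 0.05). Of all 27438 genes, 2929, 2903, 5801 and 328 passed in these settings, in that order. Omissions gave 1 to 13 OXPHOS genes. The median change of −0.188 moved by more than the pooled SD of the array medians (0.143) with cyclic loess only (−0.039). It also shrank, by less than that SD, to −0.073 with quantile normalisation, −0.079 with normexp and −0.072 with centring on the level range. Over omissions it ran from −0.224 to −0.153.

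Between active CRHR1 and knockout, 41 genes passed. The count was 19 with quantile normalisation, 25 with normexp, 14 with cyclic loess and 16 with centring on the level range. It was 4 with median centring and 4 with the authors' values, which cover 72 of the genes. Of all 27438 genes, 7062 passed in the main setting and 7008, 7432, 6344, 5675 and 4285 in the first alternatives, in that order. With the authors' values 4425 of 24527 passed. In these alternatives the share of OXPHOS genes called was near or below that of all genes. The OXPHOS count was 14 with no filter, where 6114 of 46751 genes passed. It was 22 with the 2 groups fitted alone, where 6186 of all genes passed. It was 72 with slide as a random block (10678 of all genes) and 0 with slide as a fixed block (677 of all genes). With the fixed block 16 OXPHOS genes had an unadjusted p under 0.05 (limma). The unadjusted share of all genes was not taken with the fixed block or within slides, so these unadjusted counts have no background beside them. Omissions gave 8 to 60. The median of −0.266 moved to −0.087 with quantile normalisation, −0.097 with normexp, −0.065 with cyclic loess and −0.107 with centring on the level range, and ran from −0.308 to −0.190 over omissions. Other causes of these shifts were not tested. No slide holds both groups, so a comparison within slide could not be run.

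With the replicate number as a block (replicate block), 1, 1 and 30 genes passed in the 3 comparisons. The labels do not say whether equal numbers pair the samples. Of 15 same-numbered pairs, 3 had a correlation of deviations over 0.1, with the highest at 0.405 (knockout and Cre GFP arrays 5). Pairs of different numbers were not taken, so these values do not decide it. Centring on the median shifted all genes by −0.055, −0.097 and −0.042 in the 3 comparisons. The median over the OXPHOS genes of neither active CRHR1 comparison changed sign in the settings and omissions run, unlike that of complex II alone, given above.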
